A study of Homo sapiens with 2 samples.

Results

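The B cell receptor complex and its first signalling proteins are described here through 9 genes: CD79A, CD79B, MS4A1, CD22, LYN, SYK, BTK, BLNK and PLCG2. They were chosen by gene name, and all 9 had reads, out of 16645 annotated genes with reads in the table. Native RNA of GM12878, an Epstein-Barr virus-transformed B-lymphoblastoid line, was read by nanopore direct RNA sequencing in 2 libraries. These are replicates 1 and 2 of a single untreated group, with no stated genotype change, time course or comparison line. The labels do not say whether the replicates were separate cultures, so every p-value below measures the difference between these 2 libraries, which may be technical, and not a difference between conditions.

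Immunoglobulin on the B cell surface has almost no cytoplasmic tail and signals through the CD79A and CD79B heterodimer, whose tails carry tyrosine motifs known as ITAMs. On antigen binding, LYN phosphorylates these motifs, SYK docks on them, and the adaptor BLNK gathers BTK and PLCG2, so that PLCG2 can cleave membrane phosphoinositide and release calcium. CD22 recruits phosphatases that damp the signal, and MS4A1 encodes CD20, a surface protein of mature B cells and a target of therapeutic antibodies.

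Replicate 1 comprised 1360368 reads and replicate 2 comprised 1510998, so 1 read was worth 0.735 and 0.662 counts per 1000000 reads (CPM). The 9 genes had 86 to 936 reads in replicate 1 and 87 to 1026 in replicate 2. Markers fixed for B cells were present: all 6 had reads, from EBF1 at 5.81 CPM ± 3.02 (SD, n = 2) to CD37 at 294 CPM ± 38.3 (SD, n = 2). POU2AF1, with 329 and 275 reads, was the only one of the 6 that passed the test between libraries described below (log2 ratio -0.41, adjusted p of 0.0151, exact binomial test). Their summed level was 677 CPM in replicate 1 and 682 CPM in replicate 2. The 11 markers of other lineages, myeloid, erythroid, fibroblast and epithelial, had at most 6 reads in any library. Together those markers reached 5.88 and 11.3 CPM, and LYZ, HBB, COL1A2 and EPCAM were at 0 in both libraries, where 3 reads would be 2.21 and 1.99 CPM.

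A strand of RNA gives 1 read in this assay whatever its length, so CPM counts strands and was not divided by length. CD79A, the longer-tailed signalling chain of the receptor, was the most abundant of the 9. It had 936 reads (688 CPM) in replicate 1 and 1026 reads (679 CPM) in replicate 2, a mean of 684 CPM ± 6.38 (SD, n = 2). Its partner CD79B had 113 reads (83.1 CPM) and 125 reads (82.7 CPM), a mean of 82.9 CPM ± 0.240 (SD, n = 2). CD79A reads were 8.28-fold as many as CD79B reads in replicate 1 and 8.21-fold in replicate 2; the 2 chains pair in the protein.

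The surface proteins MS4A1 and CD22 came next in abundance. MS4A1 had 360 and 416 reads, 265 and 275 CPM, a mean of 270 CPM ± 7.55 (SD, n = 2). This place depends on genomic models, defined below. Without them MS4A1 had a mean of 55.0 CPM, the lowest of the 9, next to 59.8 for BLNK and 60.4 for SYK. CD22, the inhibitory co-receptor, had 201 and 292 reads, 148 and 193 CPM, a mean of 171 CPM ± 32.2 (SD, n = 2). CD22 had the widest relative spread of the 9.

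The cytoplasmic proteins lay lower and close to each other. PLCG2, the phospholipase, had 177 and 208 reads, with a mean of 134 CPM ± 5.34 (SD, n = 2). LYN, the Src-family kinase that starts the cascade, had 117 and 160 reads, 95.9 CPM ± 14.1 (SD, n = 2). BTK, the Tec-family kinase lost in X-linked agammaglobulinaemia, had 113 and 140 reads, 87.9 CPM ± 6.78 (SD, n = 2). The adaptor BLNK had 89 and 87 reads, 61.5 CPM ± 5.55 (SD, n = 2), and the kinase SYK had 86 and 87 reads, 60.4 CPM ± 3.99 (SD, n = 2). In the order CD79A, MS4A1, CD22, PLCG2, LYN, BTK, CD79B, BLNK, SYK, the pairs CD22 and PLCG2, LYN and BTK, BTK and CD79B, and BLNK and SYK did not differ beyond 1 SD on either side.

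**Figure D1:**
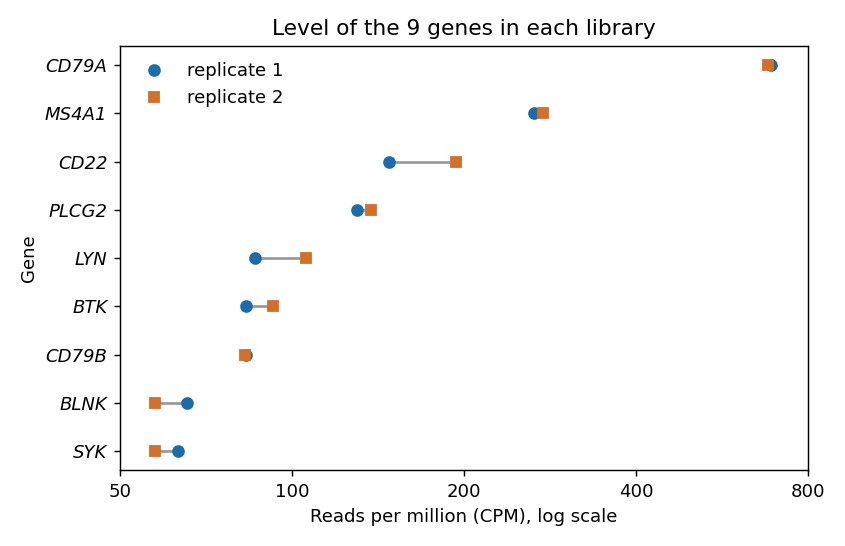
CPM (x axis, log scale) of the 9 genes (y axis) in replicate 1 (circles) and replicate 2 (squares), joined by a line. CD79A stands apart at 688 and 679 CPM, SYK and BLNK are lowest, and CD22 has the widest gap between the libraries, 148 against 193 CPM.

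None of the 9 genes differed between the libraries in total reads at an adjusted p of 0.05 (exact binomial test, two-sided, with the shares expected from the library sizes, Benjamini-Hochberg adjustment over 10634 genes with at least 10 reads). Of all genes tested, 5.05% passed, 2.72% higher and 2.33% lower in replicate 2. CD22 alone of the 9 had an unadjusted p under 0.05, as did 1681 of the 10634 genes tested. Its log2 ratio of replicate 2 to replicate 1 was 0.39 (exact binomial test, p of 0.00335 and adjusted p of 0.0603). CD22 passed without genomic models (adjusted p of 0.0129, where 8.26% of 8758 genes passed) and over genes of at least 100 reads (0.0282, where 14.4% of 3879 passed). With known models only, the CD22 ratio turned to -1.24 and did not pass (adjusted p of 0.162). The other 8 ratios ran from -0.18 for BLNK to 0.30 for LYN, and the median of the 9 was 0.06, against 0.01 over all genes tested. Each ratio has 0.5 reads added above and below the line.

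The totals were made up of transcript models, which the table divides into 5 categories in these genes. Known models match an annotated transcript. Incomplete splice matches (ISM) hold a run of its junctions, or have 1 exon and hold none. Models with a run of junctions are called suffix where they keep its 3′ end. The ISM models of 1 exon named below are of neither subtype, suffix or prefix, also where their length equals that of a last exon. Suffix shares therefore leave them out. NIC models join annotated splice sites in a new way, NNC models have an unannotated splice site, and genomic models overlap the gene without matching its splicing. Known reads led in CD79A and CD79B, genomic reads in MS4A1, and ISM reads in CD22, SYK and LYN in both libraries. In PLCG2 and BTK, ISM reads led in both libraries too, at 58.2% and 84.6%, and 44.2% and 76.4%, while in BLNK known reads led in replicate 1 and ISM reads in replicate 2.

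**Figure D2:**
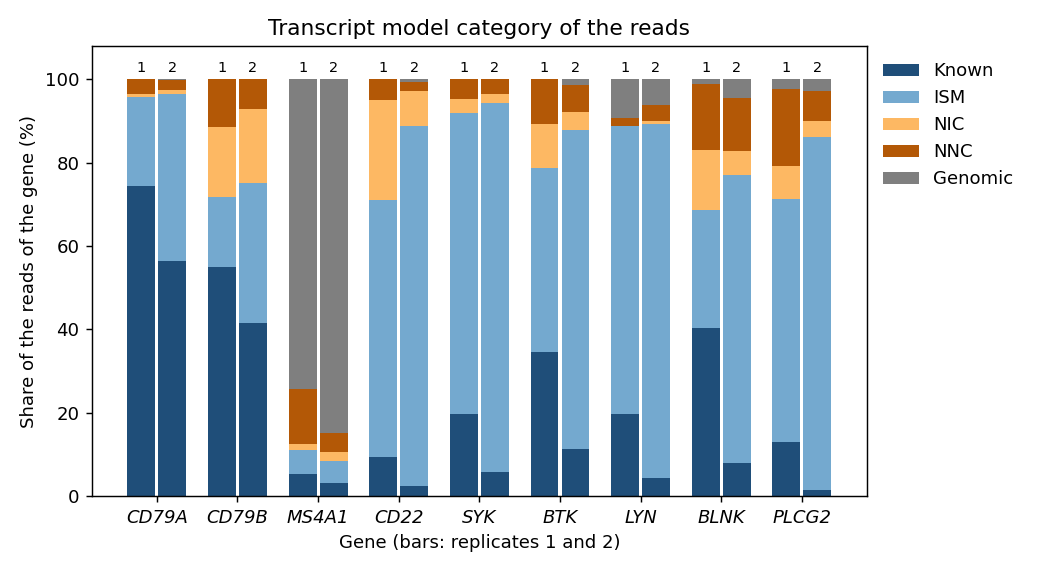
Share of the reads of each gene (y axis, percent) by category of transcript model, with a stacked bar for replicate 1 and replicate 2 of each gene. Known models fill most of CD79A (74.5% and 56.3%), and genomic models most of MS4A1 (74.2% and 84.9%). The known part is smaller in replicate 2 for all 9 genes, as it is for 6306 of the 7810 genes tested.

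The share of reads in known models was lower in replicate 2 in all 9 genes, and the difference passed in 7 of them (two-sided Fisher's exact test within each gene, adjusted p under 0.05 over 7810 genes with at least 20 reads). The known share was lower in replicate 2 in 6306 of these 7810 genes as well. Over all genes tested, 21.5% passed in either direction, and 21.3% passed and were lower in replicate 2. Among the 3729 genes with at least 100 reads, as all 9 genes have, 3311 were lower in replicate 2, and 44.5% were lower and passed. The median difference was -14.0 percentage points over the 9 genes, -9.10 over all genes tested and -10.4 over those with at least 100 reads.

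The adaptor BLNK had the largest difference: 36 of 89 reads were in known models in replicate 1, 40.4% (exact Clopper-Pearson 95% interval 30.2 to 51.4%), and 7 of 87 in replicate 2, 8.05% (3.30 to 15.9%; Fisher's exact test, adjusted p of 9.31e-06). BTK fell by 23.1 percentage points, from 39 of 113 reads, 34.5% (25.8 to 44.0%), to 16 of 140, 11.4% (6.68 to 17.9%; Fisher's exact test, adjusted p of 0.000197). CD79A fell from 697 of 936 reads, 74.5% (71.5 to 77.2%), to 578 of 1026, 56.3% (53.2 to 59.4%; Fisher's exact test, adjusted p of 2.83e-15). In these 3 genes, and also in LYN, PLCG2 and CD22, the intervals of the libraries did not overlap. The share of all genes without overlap was not computed, and such intervals cover counting error only.

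LYN fell from 23 of 117 known reads to 7 of 160, 19.7% to 4.38% (Fisher's exact test, adjusted p of 0.000782). PLCG2 fell from 23 of 177 to 3 of 208, 13.0% to 1.44% (Fisher's exact test, adjusted p of 9.08e-05). CD22 fell from 19 of 201 to 7 of 292, 9.45% to 2.40% (Fisher's exact test, adjusted p of 0.00633). In the kinases, the phospholipase and CD22, a read that matched an annotated transcript end to end in its splicing was thus rare in replicate 2.

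SYK had 17 known reads of 86 in replicate 1 and 5 of 87 in replicate 2, 19.8% and 5.75% (Fisher's exact test, adjusted p of 0.0327). With models of a single exon left out, the SYK difference was -23.9 percentage points and did not pass (adjusted p of 0.111). CD79B, with 62 of 113 and 52 of 125 known reads, 54.9% and 41.6%, did not pass (Fisher's exact test, adjusted p of 0.162). MS4A1 had 19 of 360 and 13 of 416, 5.28% and 3.12%, and did not pass (adjusted p of 0.347). The MS4A1 difference turned to 0.205 percentage points when genomic models were left out.

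Which models were counted therefore decided the gene-level comparison. With known models only, 4 of the 9 genes passed the same exact binomial test, all lower in replicate 2, against 18.8% of 5528 genes in either direction and 13.0% lower. PLCG2 had a log2 ratio of -2.61 on known models (adjusted p of 0.00267) and 0.08 on all models (adjusted p of 0.919, exact binomial test). BLNK had -2.15 (adjusted p of 0.00037) against -0.18, and BTK -1.13 (adjusted p of 0.0386) against 0.16. LYN stood at the threshold, with -1.51 (adjusted p of 0.04998) against 0.30. The median over all genes with known models was itself -0.26, so that relative to it PLCG2, BLNK, LYN and BTK were at -2.35, -1.89, -1.25 and -0.86. CD79A and CD79B, at -0.14 and -0.12, lay above that median.

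**Figure D3:**
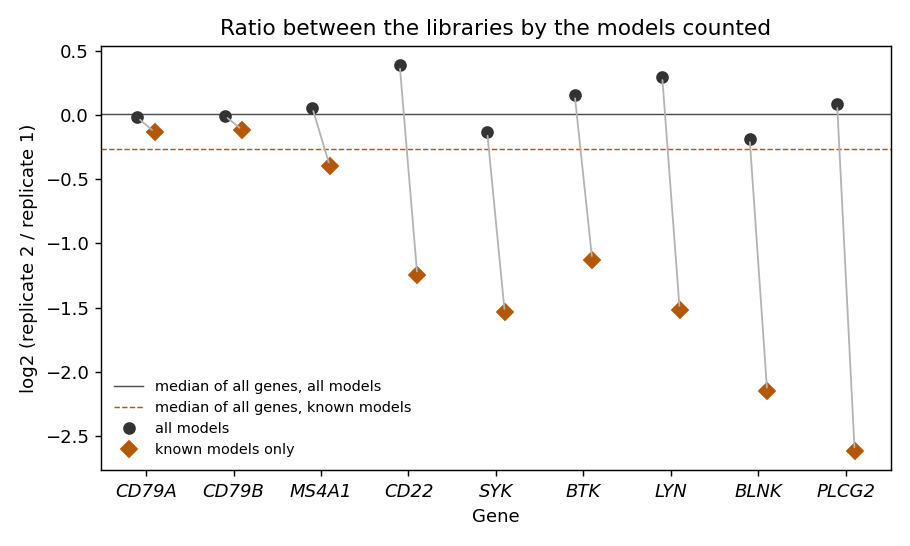
Log2 ratio of replicate 2 to replicate 1 (y axis) for the 9 genes (x axis), from all models (circles) and from known models only (diamonds), with the median over all genes for each as a line. All-model ratios lie between -0.18 and 0.39, while known-model ratios reach -2.15 in BLNK and -2.61 in PLCG2.

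Reads were next grouped by the number of exons in the model they were assigned to. As reference the most read transcript with a consensus coding sequence (CCDS) was taken. The CCDS transcripts of MS4A1 had no reads, so MS4A1-201 was taken as the first by name. Reads in models with at least the exon number of the reference were called exon-complete. The table holds no read positions, so exon number describes the assigned model and not each read. In CD79A (reference CD79A-201, 5 exons, 1258 bases), 78.3% of reads in replicate 1 and 59.5% in replicate 2 were exon-complete. In CD79B (CD79B-203, 6 exons, 1254 bases) the shares were 62.8% and 45.6%. The receptor chains are the shortest transcripts of the 9, and most of their reads spanned all or nearly all exons.

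In BTK (BTK-201, 19 exons, 2579 bases), 60 of 113 reads were exon-complete in replicate 1, 53.1% (43.5 to 62.5%), and 24 of 140 in replicate 2, 17.1% (11.3 to 24.4%). The median BTK read lay in a model of 19 exons in replicate 1 and of 6 exons in replicate 2. In BLNK (BLNK-201, 17 exons, 1784 bases) the exon-complete shares were 30.3% and 8.05%, and with 16 exons, the number in BLNK-202, they were 60.7% and 19.5%. In PLCG2 (reference of 33 exons and 8707 bases) they were 22.6% (16.7 to 29.5%) and 3.37% (1.36 to 6.81%), and the median model had 22 and 9 exons. BTK, BLNK and PLCG2 thus declined over several uneven steps in exon number, and further in replicate 2. In replicate 1 BLNK went from 82.0% at 3 exons to 68.5% at 15, and fell most at the last step. BTK stayed at 54.9% from 16 to 18 exons in replicate 1.

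A sharper drop marked LYN, MS4A1 and SYK, where models of 1 exon held 48.8% or more of the reads in each library. In SYK (SYK-204, 14 exons, 5005 bases), models of 1 exon held 48.8% and 60.9% of the reads, and exon-complete models 26.7% and 6.90%. In LYN (LYN-202, 13 exons, 2297 bases), models of 1 exon held 69.2% and 74.4%, and exon-complete models 21.4% and 5.62%. In MS4A1 (MS4A1-201, 7 exons, 3331 bases), models of 1 exon held 74.2% and 84.9%, and exon-complete models 13.9% and 6.49%. With at least 6 exons, the number in MS4A1-202, which also had no reads, the latter shares were 15.8% and 7.93%. In CD22 (CD22-201, 14 exons, 3268 bases), models of 1 exon held 19.9% and 38.0%, and exon-complete models 19.4% and 5.14%. CD22 too fell most at the step from 1 to 2 exons, though by less. The exon-complete share was lower in replicate 2 in each of the 9 genes. This difference was not tested, and its direction over all genes was not computed. The known share was lower in replicate 2 in 6306 of the 7810 genes tested for it.

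**Figure D4:**
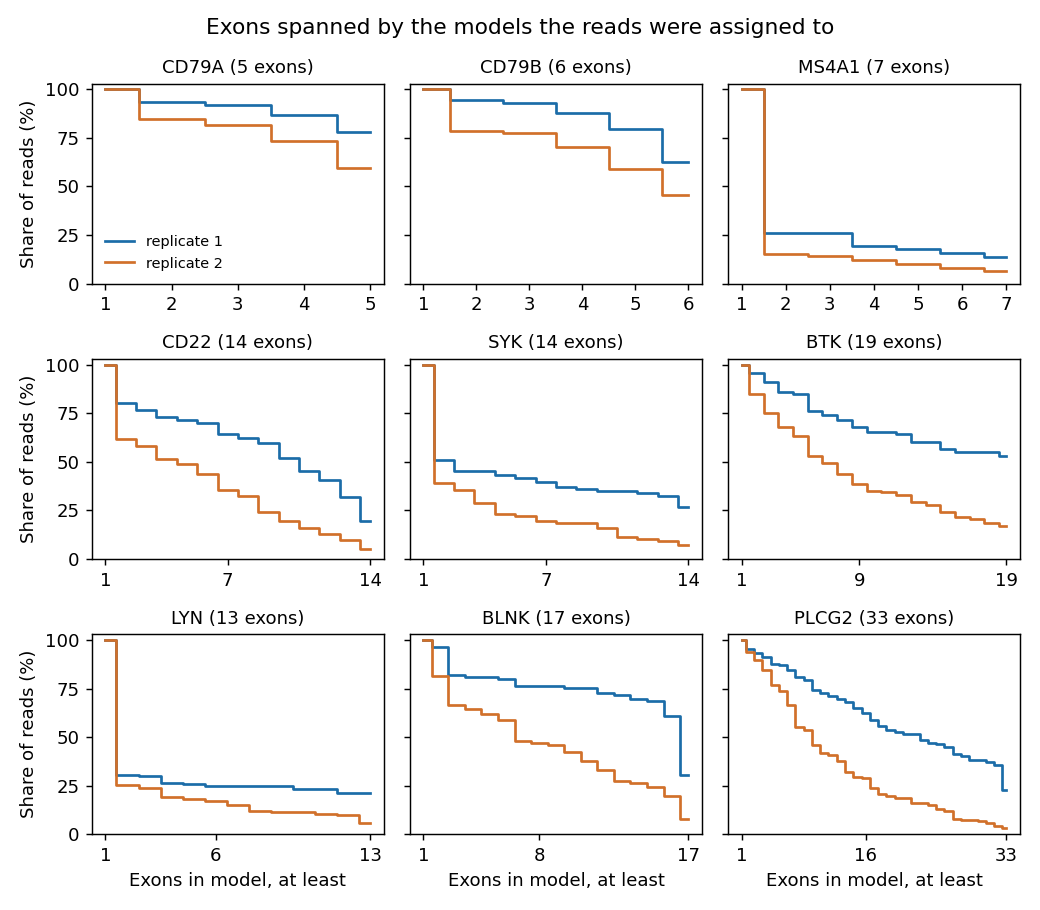
Share of reads (y axis, percent) assigned to models with at least the number of exons on the x axis, in replicate 1 and replicate 2, with a panel per gene up to the exon number of its reference transcript. BTK, BLNK and PLCG2 decline over several uneven steps. SYK, LYN and MS4A1 drop at the step from 1 to 2 exons, where CD22 also has its largest drop. The replicate 2 line lies below that of replicate 1, and how many of all genes share this direction was not computed.

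In 5 of the 9 genes the most read ISM model was exactly as long as the last exon of the reference. CD79A had an ISM model of 1 exon and 506 bases with 62 and 156 reads. The CD79B model of 585 bases had 6 and 27 reads, and the CD22 model of 790 bases had 40 and 106. The SYK model of 3022 bases had 42 and 52 reads, and the BTK model of 507 bases had 5 and 19. These lengths equal those of the annotated last exons. Raw reads in these models were more numerous in replicate 2, the deeper library, in each of the 5 genes. How many of all genes show either pattern was not computed. The CD22 and SYK models led their genes among known, ISM, NIC and NNC models. The CD22 share differed between the libraries (Fisher's exact test, adjusted p of 0.00101) and the SYK share did not (adjusted p of 0.368), where 19.9% of 6741 genes passed. In BTK, 51.1% and 52.6% of the reads in suffix models and in ISM models of neither subtype had the exact length of a run of last exons of an annotated transcript, and in CD79A 75.4% and 74.5% did. The shares were 58.8% and 76.9% in CD79B, 51.6% and 60.7% in CD22, and 84.5% and 75.7% in SYK. BLNK had 52.0% and 27.1%. Few such reads matched in the other 3 genes, with 1.25% and 10.4% in LYN, 4.17% and 4.27% in PLCG2, and 0 of 15 and 0 of 11 reads in MS4A1. LYN differed: its leading ISM model of 1 exon had 1417 bases and 70 and 109 reads, and matched neither the 665-base last exon of LYN-202 nor the 4261-base last exon of LYN-204.

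CD79A (chromosome 19, 41877120 to 41881372, plus strand, GRCh38) had 2 known models with reads. CD79A-201, of 5 exons and 1258 bases, had 582 reads in replicate 1 and 497 in replicate 2. CD79A-202, of 5 exons and 567 bases, had 115 and 81. An NNC model of 5 exons and 1091 bases had 11 reads in each library. The shorter model uses an upstream donor in exon 2 and leaves out 114 bases at the end of that exon (chr19:41879176-41879289, plus strand), which encode part of the extracellular immunoglobulin-like domain. The segment is shown because it separates the 2 forms of the most abundant gene; capitals mark the 114 bases, with 15 bases of exon on either side in lower case, from the GENCODE release 29 transcripts.
CD79A-201: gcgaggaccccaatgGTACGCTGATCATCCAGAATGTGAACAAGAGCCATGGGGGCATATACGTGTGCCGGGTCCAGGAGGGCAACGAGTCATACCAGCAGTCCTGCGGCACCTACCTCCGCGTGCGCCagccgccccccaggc
CD79A-202: gcgaggaccccaatgagccgccccccaggc

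CD79A-201 held 83.5% of the known CD79A reads in replicate 1 (80.5 to 86.2%) and 86.0% in replicate 2 (82.9 to 88.7%), a difference of 2.49 percentage points that did not pass (Fisher's exact test, adjusted p of 0.680). The short exon 2 was thus in 16.5% and 14.0% of known reads. Suffix models of 4 exons whose lengths equal exons 2 to 5 with the long and the short exon 2, at 994 and 880 bases, had 72 and 3 reads in replicate 1 and 119 and 13 in replicate 2. The short form made up 3 of 75 of these reads (0.833 to 11.2%) and 9.85% (5.35 to 16.3%). The short form was seen in both libraries and in both kinds of model, as the minor form.

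CD79B (chromosome 17, 63928740 to 63932354, minus strand) spread its known reads over more models than CD79A. CD79B-203 had 23 and 27 reads and CD79B-201 had 26 and 13. Within the coding sequence these models differ by 3 bases at the start of exon 2 (chr17:63931386-63931388, minus strand), shown in capitals because the order of the pair was not the same in the libraries.
CD79B-203: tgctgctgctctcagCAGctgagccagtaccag
CD79B-201: tgctgctgctctcagctgagccagtaccag

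CD79B-203 held 37.1% of known CD79B reads in replicate 1 (25.2 to 50.3%) and 51.9% in replicate 2 (37.6 to 66.0%), a difference that did not pass (Fisher's exact test, adjusted p of 0.511). CD79B-205, a retained-intron model of 4 exons and 1159 bases, had 6 and 11 reads. CD79B-202, of 5 exons, lacks the 312-base exon of the extracellular domain and had 6 and 1 reads. The most recurrent NIC model had 5 exons and 937 bases, 317 bases fewer than CD79B-203, with 5 and 9 reads, and the most recurrent NNC model had 6 exons and 1242 bases, with 6 and 3. NIC and NNC models together took 28.3% (20.2 to 37.6%) and 24.8% (17.5 to 33.3%) of CD79B reads. In CD79A they took 4.17% (2.98 to 5.65%) and 3.31% (2.31 to 4.60%). These intervals did not overlap in either library, and they cover counting error only. The CD79B share in replicate 1 was near those of BLNK (30.3%), CD22 (28.9%) and PLCG2 (26.6%), while BTK, MS4A1, SYK and LYN had less. In replicate 2 BLNK, CD22 and PLCG2 had 18.4%, 10.6% and 11.1%.

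MS4A1 (chromosome 11, 60455752 to 60470760, plus strand) was the exception in its categories. Genomic models held 267 of 360 reads, 74.2% (69.3 to 78.6%), and 353 of 416, 84.9% (81.0 to 88.2%), a mean of 79.5% ± 7.56 (SD, n = 2). In the other 8 genes the genomic share was at most 9.40%. Among the 3879 genes with at least 100 reads the median genomic share was 3.57% in replicate 1 and 6.44% in replicate 2, and 202 and 195 genes lay above MS4A1. All 4 genomic models of MS4A1 were single intervals. The leading one, of 1308 bases, had 185 and 190 reads, and the next, of 499 bases, had 74 and 145.

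No transcript with the complete CD20 coding sequence of 891 bases was among the known MS4A1 models with reads. The known reads belonged to MS4A1-208, a retained-intron model of 3 exons and 582 bases with 18 and 8 reads, to MS4A1-205 with 1 and 3, and to MS4A1-206 with 0 and 2. The model with the number of exons of MS4A1-201 and the most reads was an NNC model of 7 exons and 2698 bases, 633 fewer than MS4A1-201, with 43 and 17 reads. It made up 11.9% of the gene in replicate 1 and 4.09% in replicate 2. The last exon of MS4A1-201 alone has 2503 bases, and 44.1% and 61.9% of MS4A1 reads in models of 2 or more exons were in models shorter than that. The leading ISM model was a prefix of 5 exons and 574 bases, with 5 and 4 reads. A count limited to known models gave MS4A1 a level of 11.3 CPM, in place of 270.

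The long last exon of the reference set PLCG2 and SYK apart as well. The PLCG2 reference ends in an exon of 4738 bases, and 146 of 169 reads in PLCG2 models of 2 or more exons (86.4%) in replicate 1 and 192 of 195 (98.5%) in replicate 2 were in models shorter than this exon alone. PLCG2 (chromosome 16, 81739097 to 81962693, plus strand) had its most read ISM model at 7 exons and 1383 bases, with 6 and 20 reads. Its most recurrent NNC model had 33 exons, the number in the reference, in 4033 bases, with 6 and 2 reads. That model is shorter than the last exon of the reference, so it cannot hold that exon in full. In SYK, whose last exon has 3022 bases, 38.6% and 76.5% of such reads were in shorter models. In CD79A, CD22, BTK, LYN and BLNK the share was at most 2.52%, and in CD79B it was 7.48% and 1.02%. The reference last exons of these genes are shorter, from 391 bases in BLNK to 790 in CD22. For LYN the reference was LYN-202, with a last exon of 665 bases, while LYN-204 ends in an exon of 4261 bases.

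CD22 (chromosome 19, 35319261 to 35347355, plus strand), the inhibitory receptor, was spread over 126 models, of which 29 (23.0%) had reads in both libraries and 87 (69.0%) rested on 1 read. CD22-201 had 17 and 3 reads. Suffix models held 40.8% (33.9 to 47.9%) and 45.5% (39.7 to 51.5%) of CD22 reads. NIC models held 23.9% (18.2 to 30.4%) in replicate 1 and 8.56% (5.62 to 12.4%) in replicate 2, and the most recurrent of them had 13 exons and 2798 bases with 6 and 3 reads. CD22-202, which lacks exons 5 and 6 of CD22-201, of 267 and 264 bases, in the extracellular part, had 1 and 0 reads. CD22-209, which by its exon lengths lacks the same 2 exons, had 1 read in each library.

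SYK (chromosome 9, 90801787 to 90898549, plus strand) and BLNK (chromosome 10, 96191702 to 96271587, minus strand) each have an annotated coding exon of 69 bases that some models skip. Both are shown because the reads treat them differently: exon 7 of SYK (chr9:90867131-90867199, plus strand), in the linker between the SH2 and kinase domains, and exon 8 of BLNK (chr10:96215321-96215389, minus strand), with the exon in capitals and 15 bases of the neighbouring exons in lower case.
SYK-204: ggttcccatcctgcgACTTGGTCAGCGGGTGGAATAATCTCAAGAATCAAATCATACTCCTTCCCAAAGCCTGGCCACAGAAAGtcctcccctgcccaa
BLNK-201: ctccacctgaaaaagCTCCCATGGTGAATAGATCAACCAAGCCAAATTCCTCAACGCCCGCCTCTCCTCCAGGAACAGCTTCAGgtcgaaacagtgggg
BLNK-202: ctccacctgaaaaaggtcgaaacagtgggg

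SYK-204, which carries the exon, had 16 and 3 reads, and SYK-201, which carries it behind another first exon, had 1 and 1. SYK-202 and SYK-203, which skip it, had no reads in either library. BLNK-201, with its exon 8, had 22 and 5 reads, and BLNK-202, without it, had 14 and 2. BLNK-201 thus held 61.1% and 71.4% of known reads, 22 of 36 and 5 of 7, with an adjusted p of 1.0 (Fisher's exact test). Reads in known models of both BLNK forms were present in each library, and the known SYK models of 14 exons with reads both carried the exon. A further 6 and 2 exon-complete SYK reads were in models that are not known, whose content at this exon was not examined. The most recurrent NIC model of SYK had 14 exons and 2743 bases, with 3 and 2 reads, and the leading ISM model of BLNK had 2 exons and 547 bases, with 12 and 11.

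LYN (chromosome 8, 55879813 to 56014168, plus strand) had reads in both of its annotated full-length forms. LYN-202 had 17 and 4 reads and LYN-204 had 6 and 3; their coding sequences of 1536 and 1473 bases differ by 63 bases, as in the insert that separates the LYN A and B proteins. LYN-202 held 73.9% (51.6 to 89.8%) and 57.1% (18.4 to 90.1%) of known reads (Fisher's exact test, adjusted p of 0.981). The interval in replicate 2 rests on 7 reads, so a change in the ratio of the forms was not detectable at this depth. A genomic model of 354 bases had 7 reads in each library.

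Leading known models were tested in the 7 genes with 2 or more of them, and 0 of the 7 passed, against 7.56% of 3054 genes (Fisher's exact test). MS4A1 and CD22 had unadjusted p-values under 0.05 (0.0289 and 0.0278), and Fisher's exact test gave adjusted p of 0.208 and 0.202. When ISM, NIC and NNC models were allowed as well, but not genomic ones, 4 of the 9 genes passed (CD79A, CD22, BTK and BLNK), against 19.9% of 6741 genes. BTK and PLCG2 each had 1 known model with reads, BTK-201 with 39 and 16 reads and the full-length PLCG2 model with 23 and 3. An NNC model of BTK with 19 exons, the number in BTK-201, and 2583 bases had 2 reads in each library.

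Over the 9 genes together, 586 models had reads, 162 (27.6%) had them in both libraries, and 373 (63.7%) rested on 1 read. Recurrence was highest in CD79B, where 16 of 36 models (44.4%) had reads in both libraries, and lowest in BLNK, with 13 of 66 (19.7%). BTK (chromosome X, 101349447 to 101390796, minus strand) had 17 of 67. PLCG2 had the most models, 146, of which 103 (70.5%) rested on 1 read. Genes that overlap the 9 contributed few reads of their own: ZNF518A, on the opposite strand of BLNK, had 3 and 8, and AC099524.1 and RN7SKP176, on the strand of PLCG2, had 1 and 3 and 2 and 3.

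The other genes of the pathway were read through a list of 29, all of which had reads and 27 of which had at least 10. Of these, 1 was higher and 0 were lower in replicate 2 in the exact binomial test, against 2.72% higher and 2.33% lower over all genes tested, so the list's count was near the background. In the list 6 of these 27 genes had an unadjusted p under 0.05, against 1681 of the 10634 genes tested. The median log2 ratio of the list was -0.05. The gene that passed was CR2, the complement receptor that lowers the threshold of the B cell receptor, which rose from 45 to 100 reads (log2 ratio 0.99, adjusted p of 0.00322, exact binomial test). The 5 most abundant were CSK, the kinase that restrains Src-family kinases, at 287 CPM ± 7.30 (SD, n = 2), the phosphatase PTPN6 at 269 CPM ± 26.9, the co-receptor subunit CD81 at 242 CPM ± 28.8, the adaptor GRB2 at 205 CPM ± 9.88 and the adaptor LAT2 at 196 CPM ± 7.65. These 5 stood above BTK, SYK and BLNK, and CSK and PTPN6 were near MS4A1 when all models were counted.

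Genes that serve the T cell receptor in the same roles, or belong to the same families, were mostly low. CD3D and CD3G were at 0 in both libraries, CD247 had 1 and 1 reads, LAT 2 and 1, FCER1G 1 and 0, and CD3E 5 and 16. ZAP70, the relative of SYK, had 2 and 8 reads, a mean of 3.38 CPM ± 2.70 (SD, n = 2), against 60.4 CPM for SYK. TEC stood at 14.3 CPM ± 0.568 (SD, n = 2) against 87.9 for BTK, LCP2 at 10.7 CPM ± 1.67 against 61.5 for BLNK, and PLCG1 at 25.4 CPM ± 8.78 against 134 for PLCG2. LCK, the Src-family kinase best known from T cells, was the exception, with 162 and 147 reads and 108 CPM ± 15.4 (SD, n = 2), which did not differ from LYN at 95.9 CPM ± 14.1 beyond the spread. None of the 6 genes of this list with at least 10 reads passed the exact binomial test between libraries. Of these, 2 (CD3E and PLCG1) had an unadjusted p under 0.05, against 1681 of the 10634 genes tested.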

How the data were processed

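Direct RNA reads of 2 GM12878 libraries were analysed as 1 group of 2 replicates, matched to columns by title. The authors deposited raw read counts per transcript model, with no normalization, together with the exon number and length of each model. The table is named for TALON; per the submitters' processing notes, minimap2 and hg38 were used, and read filters, versions and the annotation release are not given in the sources used here. All 23533 known models had the same identifier, exon number and length in GENCODE release 29, which therefore gave positions, exons and sequences. CPM, exact binomial tests, Fisher's exact tests, Benjamini-Hochberg adjustment and Clopper-Pearson intervals were computed with SciPy 1.17.1 and pandas 2.3.3 in Python 3.11.15. Only the binomial test of gene reads and Fisher's exact test of a share of reads, each with its adjustment, were tried on simulated data. The simulated counts held counting error and planted changes only. Tests ran over all annotated genes with at least 10 reads (gene totals) or 20 reads (within genes) in both libraries together. Scaling alternatives came from edgeR 4.0.16 (TMM) and DESeq2 1.42.0. Other alternatives changed the models counted, the minimum reads and the denominators.

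The members and gene lists were chosen with earlier results of these data known. All 9 genes are named, with their known models of at least 10 reads, their leading ISM, NIC and NNC models, the 5 most abundant and the called pathway genes, and the T cell counterparts; some genes of these lists are not reported here and are left out of the lists' counts and sums, and other models were named after their values were seen.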

Additional observations from a re-analysis of the deposited data

How the results depend on the processing

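No paired analysis was possible because the design has 1 group. With either replicate removed, each mean becomes the remaining library's value. TMM, DESeq2 size factors and no filter on low counts changed no count of called genes.
Members called on total reads went from 0 to 4 with known models only, and to 1 without genomic models or with at least 100 reads; over all genes tested, 5.05% passed, and 18.8%, 8.26% and 14.4% under these settings. Called pathway genes went from 1 to 4 with known models only and to 3 without genomic models.
Gene log2 ratios changed sign with known models only in MS4A1 (-0.40), CD22 (-1.24), BTK (-1.13), LYN (-1.51) and PLCG2 (-2.61), without genomic models in CD79A (0.0508), CD79B (0.0648) and MS4A1 (-0.64), and with DESeq2 size factors in CD79B (0.00298).
With known models only, mean CPM was 447 for CD79A, 40.0 for CD79B, 11.3 for MS4A1, 9.30 for CD22, 7.90 for SYK, 19.6 for BTK, 10.8 for LYN, 15.5 for BLNK and 9.45 for PLCG2. Without genomic models, MS4A1 had 55.0 CPM, a known share of 20.5%, a suffix share of 16.8% and an exon-complete share of 48.3% (an alternative added after seeing the data).
Among models of 2 or more exons the known share was 20.5% in MS4A1, 26.7% in SYK and 40.5% in LYN. The known-share difference of MS4A1 became 0.205 percentage points in both subsets. With ISM, NIC and NNC models allowed too, 4 genes differed in their leading model in place of 0 (19.9% of all genes tested), and the same models changed by -13.7 percentage points in CD79A and -19.0 in BLNK. Dividing CPM by length changed the rank of 5 genes.
Depth limits the isoform ratios of SYK, LYN, BLNK and CD22, which rest on 5 to 7 known reads in replicate 2.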
